A study of Mus musculus with 6 samples.

Results

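Neutrophil granule genes encode the microbicidal and iron-binding proteins that a developing neutrophil stores before it leaves the marrow. The 10 genes described here were chosen by name and by granule stage. Mpo, Prtn3, Elane and Ctsg stand for the primary (azurophil) granules, Ltf, Camp and Ngp for the secondary (specific) granules, and S100a8, S100a9 and Chil3 for genes expressed late. A probe set was used only where the platform annotation names exactly 1 gene, and each of the 10 genes had 1 such probe set among the 18193 genes measured in this way.

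The arrays compare Ebf2-positive with Ebf2-negative cells of fresh marrow from adult C57BL/6 mice that were wild type and untreated. Both sorts shared the gate CD45-TER119-CD31-, which is meant to leave out leukocytes, red cell precursors and endothelial cells, and differed in EBF2+ or EBF2-. RNA of 1000 or 2000 cells per sample was amplified and hybridized to Affymetrix MOE430_2 arrays, 3 for each group. The sources used here do not give how Ebf2 was detected, how many mice were used or which array had which number of cells. The p-values therefore cover the spread between these 6 samples only, and that spread may be technical. Values are the log2 of the RMA signal, a normalized brightness per probe set, and array medians lay between 3.70 and 3.81 on that scale. Differences are Ebf2-positive minus Ebf2-negative. They were tested with limma over all genes with Benjamini-Hochberg adjustment, and a gene is called when its adjusted p is under 0.05. In such bulk samples fewer cells of a type and less RNA per cell cannot be told apart.

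Granules are made in an order that follows neutrophil maturation. Promyelocytes transcribe the genes of primary granules, myelocytes and metamyelocytes those of secondary granules, and calcium-binding S100 proteins build up in the cytosol of the later stages. A set of granule transcripts therefore marks a stage as well as a lineage. Neutrophils and their precursors carry CD45, so the gate that both sorts used is meant to leave them out. Whether it left out all of them was not tested.

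All 4 primary granule genes had a higher mean signal in Ebf2-positive cells, except with arrays centred on the poly-A controls (below 0 for all 4), and all 6 secondary and late genes had a lower one. Only 3 of the 10 genes were called, beside 24.4% of all genes. Mpo and Prtn3 were called higher and Chil3 lower, where 10.8% of all genes were called higher and 13.6% lower. The same 3 genes were those whose groups did not overlap, 2 of them higher and 1 lower, beside 21.8% and 21.2% of all genes. The median difference was 1.35 over the 4 primary genes, -2.001 over the 3 secondary genes and -0.81 over the 3 late genes, against 0.07 over all genes. With arrays centred on the poly-A control probe sets, these medians were -0.87, -4.23 and -3.03. Such centring shifts all differences by the same amount and takes the median of all genes to -2.15. The primary genes were thus higher on the RMA scale but not relative to these controls. The controls averaged 11.08, 11.10 and 11.43 on the Ebf2-positive arrays, against 9.39, 7.96 and 9.58 on the Ebf2-negative arrays. Whether they give an absolute scale was not tested. With that centring 0 of the 10 genes were called higher and 6 lower, beside 1.67% and 83.8% of all genes (85.4% in all). Centring on the 75th percentile took the median of all genes to 0.19 and kept all 3 directions. With a minimum log2 difference of 1 in the test, 0 of the 10 genes were called, beside 7.88% of all genes (4.26% higher and 3.62% lower).

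**Figure D1:**
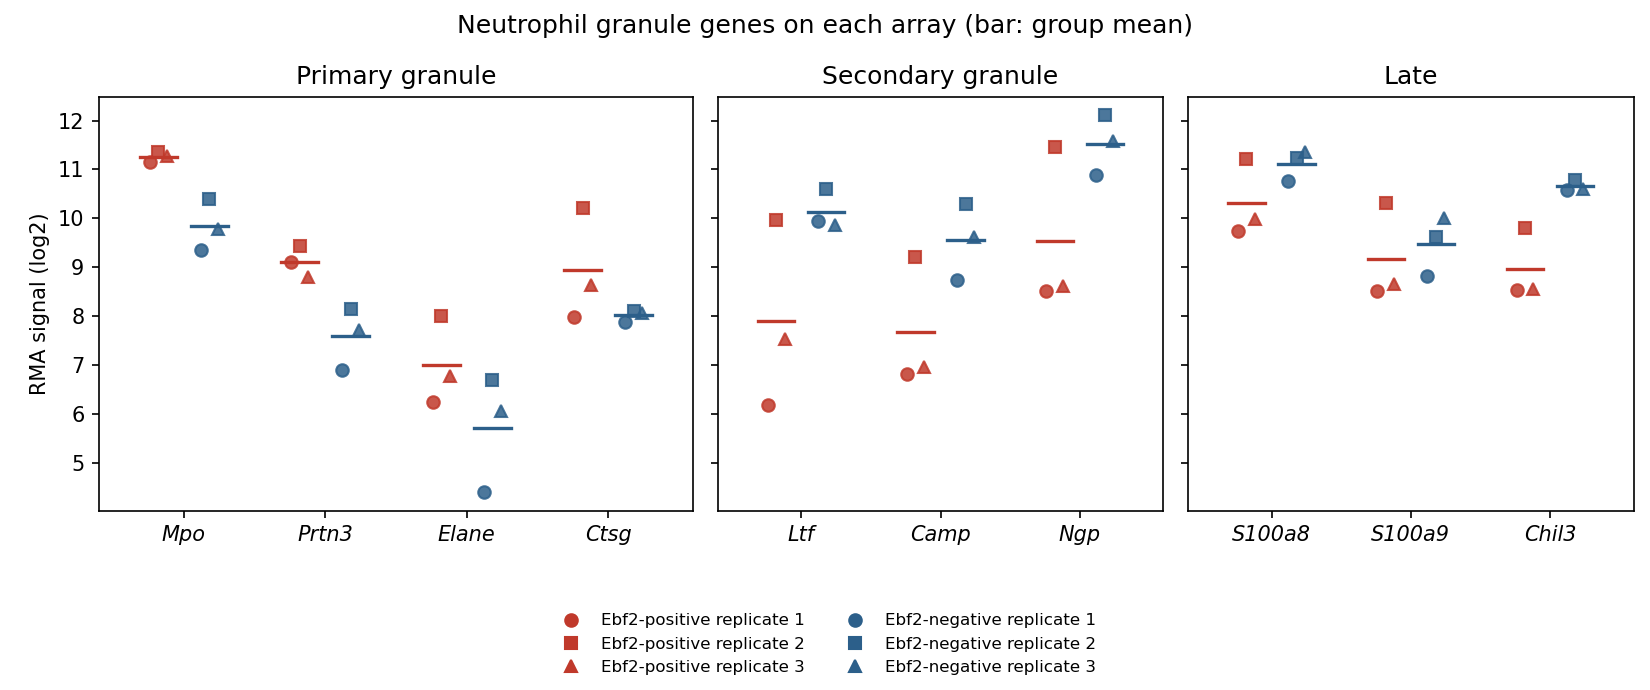
Log2 RMA signal (vertical axis) of the 10 granule genes on each of the 6 arrays, in a panel for each stage. Symbols are replicates and short bars are group means. Mpo lies between 11.15 and 11.36 on the Ebf2-positive arrays, above all Ebf2-negative arrays, while Ebf2-positive replicate 2 (square) lies near or among the Ebf2-negative arrays for the secondary genes, S100a8 and S100a9. The higher level of the primary genes turns round when arrays are centred on the poly-A controls.

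Mpo encodes myeloperoxidase, the haem enzyme of primary granules that makes hypochlorous acid. Its signal was 11.15, 11.36 and 11.28 on the Ebf2-positive arrays, against 9.35, 10.40 and 9.78 on the Ebf2-negative arrays. The groups did not overlap, and the Ebf2-positive arrays lay close together. The mean was 11.26 ± 0.11 for the Ebf2-positive sort, against 9.85 ± 0.53 for the Ebf2-negative sort (SD, n = 3 each), which differ by 1.42 (SE 0.29), or 2.67-fold (limma, adjusted p = 0.0157). The call was lost without Ebf2-negative replicate 3 (adjusted p = 0.0643), and adjusted p ranged from 0.0103 to 0.0643 over the 6 arrays left out in turn.

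Prtn3 encodes proteinase 3, a serine protease of the same granules. Prtn3 stood at 9.10, 9.43 and 8.81 in Ebf2-positive cells, against 6.90, 8.16 and 7.71 in Ebf2-negative cells. The lowest Ebf2-positive array was above the highest Ebf2-negative array. The difference was 1.53 (SE 0.36), or 2.88-fold (limma, adjusted p = 0.0254). This call was lost without Ebf2-positive replicate 1 or 2 or without Ebf2-negative replicate 1 or 3, with adjusted p between 0.0523 and 0.0753.

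Elane encodes neutrophil elastase, which degrades matrix and bacterial proteins. Its signal was 6.25, 8.004 and 6.78 on the Ebf2-positive arrays, against 4.41, 6.69 and 6.07 on the Ebf2-negative arrays. The groups overlapped, since Ebf2-negative replicate 2 was above Ebf2-positive replicate 1. The difference of 1.29 (95% interval -0.38 to 2.96) did not pass (limma, adjusted p = 0.239).

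Ctsg encodes cathepsin G, a chymotrypsin-like protease. It was at 7.99, 10.22 and 8.64 in Ebf2-positive cells, against 7.89, 8.11 and 8.06 in Ebf2-negative cells. Ebf2-positive replicate 2 stood far above the other two Ebf2-positive arrays, and replicate 1 lay within the Ebf2-negative range. The difference of 0.93 (95% interval -0.39 to 2.25) did not pass (limma, adjusted p = 0.28), and it was 0.30 without Ebf2-positive replicate 2.

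The promoters of the primary genes are shown because all 4 of them hold the same short motif. The motif, AGGAAGT, is the core bound by PU.1 and related ETS factors, and it was searched with 2 others after the sequences had been read. Each line gives 47 of the 250 bases before the RefSeq gene start (GRCm38.p6), 5′ to 3′ on the gene's strand, with the motif in capitals.
Mpo: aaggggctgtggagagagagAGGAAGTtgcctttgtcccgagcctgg
Prtn3: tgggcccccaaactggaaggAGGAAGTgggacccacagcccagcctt
Elane: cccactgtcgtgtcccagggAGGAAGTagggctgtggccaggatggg
Ctsg: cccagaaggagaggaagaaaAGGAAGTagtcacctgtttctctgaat
They lie at chr11:87793541-87793587 (+) for Mpo, chr10:79879553-79879599 (+) for Prtn3, chr10:79886208-79886254 (+) for Elane and chr14:56102754-56102800 (-) for Ctsg. The first letter of the motif is 223 bases before the start in Mpo, 94 in Prtn3, 84 in Elane and 206 in Ctsg.

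On either strand of the 250 bases before the start, AGGAAGT was present in 4 of 4 primary, 0 of 3 secondary and 2 of 3 late members, against 7.69% of 32851 RefSeq promoters. TTGCNNAA, a C/EBP motif, was present in 0 of 4 primary members, in Ltf and Ngp among the secondary members and in S100a9 among the late members, against 9.56% of promoters. TAACNG, a Myb motif, was present in Mpo and Elane and in no other member, against 19.8% of promoters. Matches of different motifs did not overlap in any member, and a match describes letters and not binding. Spi1, the gene of PU.1, was at 4.99, 5.25 and 4.77 in Ebf2-positive cells and at 4.93, 5.17 and 5.78 in Ebf2-negative cells (difference -0.29, limma adjusted p = 0.514). It was named after its value was seen.

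The secondary granule genes pointed the other way. Ltf encodes lactoferrin, which binds iron and is the classical protein of specific granules. Its signal was 6.17, 9.97 and 7.54 on the Ebf2-positive arrays, against 9.95, 10.60 and 9.86 on the Ebf2-negative arrays. Ebf2-positive replicates 1 and 3 were below every Ebf2-negative array, and replicate 2 was within their range. The difference of -2.24 (95% interval -4.42 to -0.06) did not pass after adjustment (limma, adjusted p = 0.13).

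Camp encodes the mouse cathelicidin, the precursor of an antimicrobial peptide. It stood at 6.83, 9.22 and 6.97 in Ebf2-positive cells, against 8.75, 10.29 and 9.63 in Ebf2-negative cells. Replicate 2 alone brought the Ebf2-positive range into the Ebf2-negative one. The difference was -1.88 (95% interval -3.62 to -0.15; limma, adjusted p = 0.113).

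Ngp encodes neutrophilic granule protein, a relative of the cathelicidins. Its signal was 8.52, 11.45 and 8.62 on the Ebf2-positive arrays, against 10.89, 12.11 and 11.59 on the Ebf2-negative arrays. The picture was that of Ltf and Camp, with only Ebf2-positive replicate 2 inside the range of the Ebf2-negative group. The difference was -2.001 (95% interval -3.98 to -0.03; limma, adjusted p = 0.135).

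None of the 3 secondary genes was called by limma (0 of 3). All 3 had an unadjusted p under 0.05, but 24.4% of all genes passed even after adjustment. Without Ebf2-positive replicate 2 all 3 were called lower, as were S100a8 and Chil3, while Mpo was called higher. That made 6 of the 10 genes (1 higher, 5 lower), beside 23.9% of all genes (10.3% higher, 13.6% lower). The secondary genes then differed by -3.28 for Ltf (adjusted p = 0.00762), -2.66 for Camp (adjusted p = 0.0131) and -2.96 for Ngp (adjusted p = 0.00555). Over the 6 arrays left out in turn, adjusted p ranged from 0.00762 to 0.285 for Ltf, 0.0131 to 0.279 for Camp and 0.00555 to 0.305 for Ngp. Of these 6 settings it was under 0.05 only without that array.

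Of the late genes, S100a8 and S100a9 encode the chains of calprotectin, the abundant calcium- and zinc-binding protein of neutrophil cytosol. S100a8 stood at 9.75, 11.20 and 9.99 in Ebf2-positive cells, against 10.77, 11.24 and 11.35 in Ebf2-negative cells. Its groups overlapped through Ebf2-positive replicate 2, and the difference of -0.81 (95% interval -1.81 to 0.19) did not pass (limma, adjusted p = 0.22). Without that array it was -1.25 and passed (adjusted p = 0.022, the lowest of the 6 settings with an array left out, of which the highest was 0.449).

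S100a9 was at 8.52, 10.32 and 8.65 on the Ebf2-positive arrays, against 8.81, 9.62 and 10.01 on the Ebf2-negative arrays. Ebf2-positive replicate 2 was the highest of all 6 arrays, above every Ebf2-negative one. The difference of -0.32 (95% interval -1.66 to 1.02) did not pass (limma, adjusted p = 0.722) and was 0.0024 without Ebf2-positive replicate 1.

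Chil3 encodes Ym1, a chitinase-like protein of mouse myeloid cells. Its signal was 8.54, 9.80 and 8.56 in Ebf2-positive cells, against 10.58, 10.78 and 10.61 in Ebf2-negative cells. The Ebf2-negative arrays lay almost on top of each other, and all Ebf2-positive arrays, replicate 2 included, were below them. The difference was -1.69 (SE 0.37), or 3.23-fold lower (limma, adjusted p = 0.0192). It was no longer called once Ebf2-positive replicate 1 was left out, or any of the 3 Ebf2-negative arrays (adjusted p between 0.0527 and 0.0666).

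A further probe set that names Chil4 together with Chil3 was outside the rule. It read 6.26, 7.05 and 5.44 on the Ebf2-positive arrays, against 8.15, 8.72 and 8.12 on the Ebf2-negative arrays. The difference of -2.08 was called in the fit over single probe sets (limma, adjusted p = 0.0244; 15.1% of probe sets called). Chil4, the paralogue of Chil3 that has a probe set of its own, averaged 2.37 ± 0.18 in the Ebf2-positive sort, against 2.24 ± 0.14 in the Ebf2-negative sort (SD, n = 3 each).

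**Figure D2:**
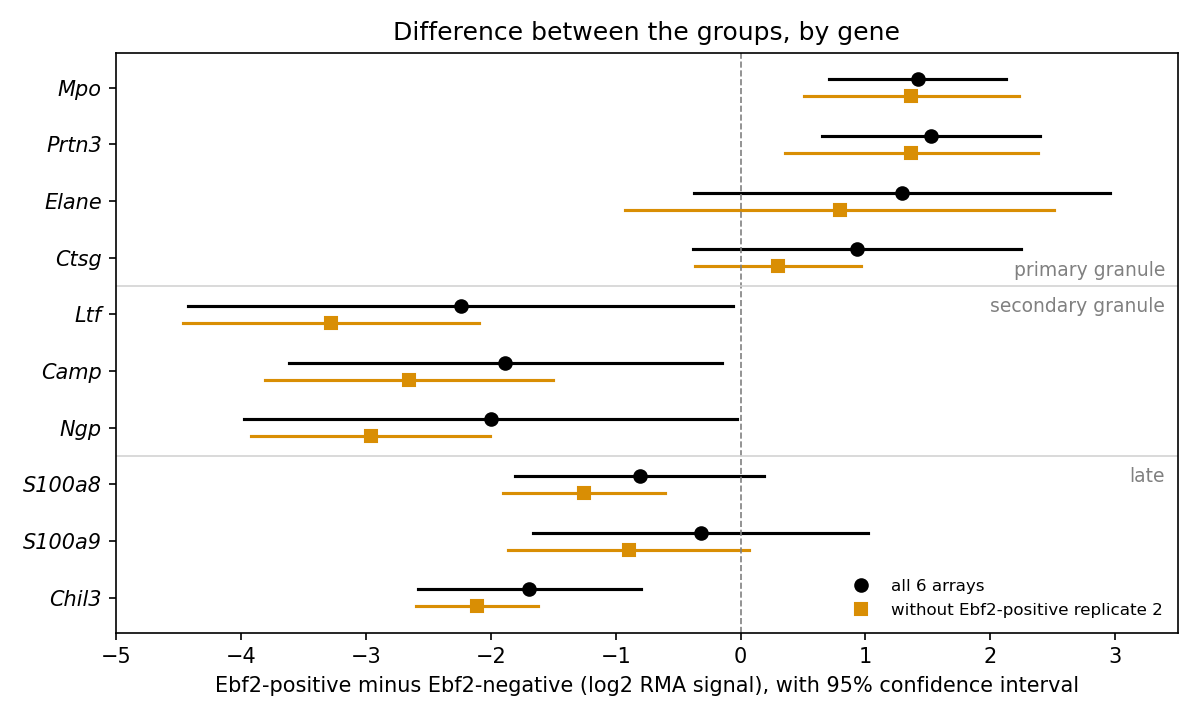
Difference of each granule gene between Ebf2-positive and Ebf2-negative cells (horizontal axis, log2 RMA signal) with its 95% confidence interval, from all 6 arrays (black) and without Ebf2-positive replicate 2 (orange). The secondary genes lie between -2.24 and -1.88 with all arrays and between -3.28 and -2.66 without that replicate. The differences of the 4 primary genes lie above 0 in both settings, though not with arrays centred on the poly-A controls. The intervals of Elane and Ctsg include 0 in both settings. Of the 6 settings with an array left out, only the one drawn called secondary genes.

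Ebf2-positive replicate 2 stood apart from the other Ebf2-positive arrays for most of these genes. The mean of the secondary genes was 7.17, 10.21 and 7.71 on Ebf2-positive replicates 1, 2 and 3, against 9.86, 10.999 and 10.36 on the Ebf2-negative arrays. Lists of markers of other cell types did not all follow. The summed intensity of 12 monocyte and macrophage genes was 457.2 on it and 257.8 and 163.6 on Ebf2-positive replicates 1 and 3, against 287.4 to 330.1 in Ebf2-negative cells. For 5 endothelial genes it was 999.5 on it and 414.6 and 366.9 on the other two, against 92.5 to 336 in Ebf2-negative cells. The erythroid sum was lowest on it (199.4, with 532.1 and 373.1 on replicates 1 and 3). The basophil and mast cell sum was 250.6 on it and 230.8 and 226.6 on replicates 1 and 3. The eosinophil sum was 26.6 on it, with 29.5 and 35.5 on replicates 1 and 3. All eosinophil genes lay below the array median on these arrays, so the order of their sums is not read. The ratio of 3′ to 5′ actin signal, a measure of RNA quality after amplification, was 14.01 on it and 31.4 and 27.3 on the other two, against 15.9 to 24.2 in Ebf2-negative cells. The part of these in the granule genes was not tested.

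The stages were then set against each other within each array, which cancels any shift common to all genes of an array. A ratio of different probe sets is no comparison of their levels, and only its change between the groups is read. The mean of the primary genes minus the mean of the secondary genes was 1.45, -0.46 and 1.17 on the Ebf2-positive arrays, against -2.73, -2.66 and -2.45 on the Ebf2-negative arrays. The groups did not overlap, with replicate 2 between the other Ebf2-positive arrays and the Ebf2-negative group, and the means differed by 3.33, or 10.1-fold.

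Set against the late genes, the primary genes gave -0.31, -0.69 and -0.19 in Ebf2-positive cells and -2.92, -2.20 and -2.75 in Ebf2-negative cells, and the means differed by 2.23. Here Ebf2-positive replicate 2 lay close to replicates 1 and 3. The secondary minus the late mean was -1.76, -0.23 and -1.36 in Ebf2-positive cells, against -0.19, 0.45 and -0.30 in Ebf2-negative cells, and these groups overlapped. No p is given for these means over members.

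Gene by gene, all 24 ratios of a primary gene to a secondary or late gene were higher in Ebf2-positive cells with no overlap between the groups. Beside this, 50.8% of the ratios of the primary genes to every other gene on the array were higher without overlap and 3.82% lower. The 12 ratios to secondary genes differed by 2.81 to 3.77 on the log2 scale and the 12 ratios to late genes by 1.25 to 3.22. Mpo over Ngp was 2.63, -0.09 and 2.67 in Ebf2-positive cells and -1.54, -1.70 and -1.81 in Ebf2-negative cells. Ctsg over S100a9 differed least, at -0.53, -0.10 and -0.01 in Ebf2-positive cells and -0.92, -1.51 and -1.96 in Ebf2-negative cells. Of 9 ratios of a secondary to a late gene, 3 were lower with no overlap, all with S100a9, beside 31.4% of the ratios of the secondary genes to every other gene (0.643% higher).

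**Figure D3:**
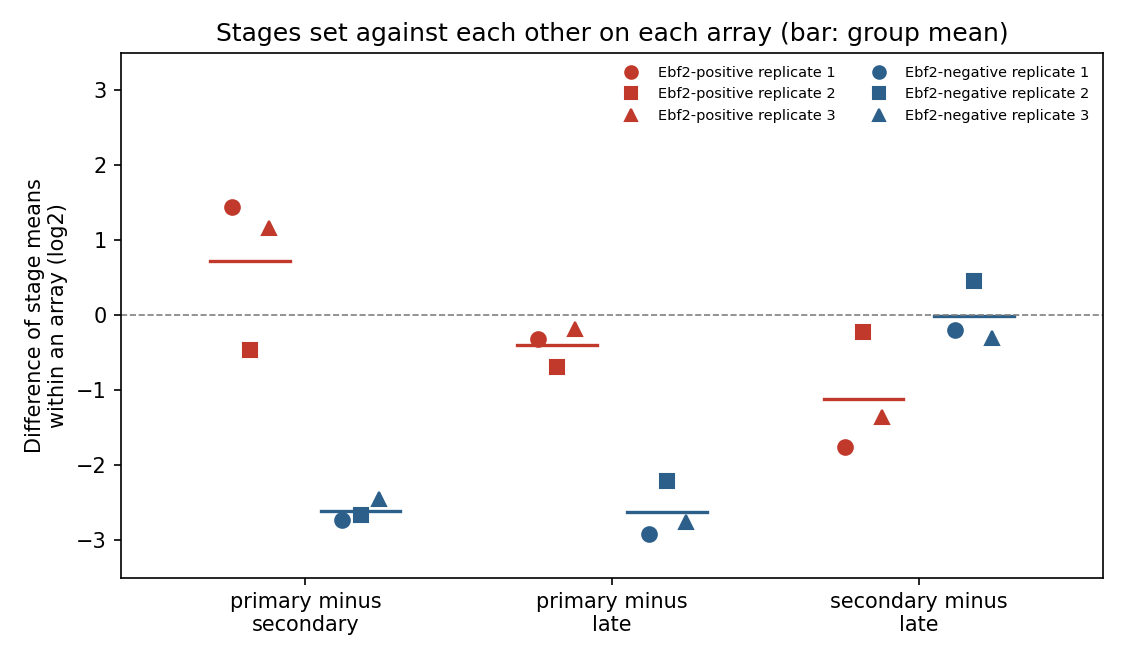
Difference of stage means within an array (vertical axis, log2) for each pair of stages, by array. Symbols are replicates and bars are group means. Primary minus secondary lies between -0.46 and 1.45 on the Ebf2-positive arrays and between -2.73 and -2.45 on the Ebf2-negative arrays. Secondary minus late overlaps between the groups.

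Across the 6 arrays the primary genes followed each other, and so did the secondary genes. This is a description in which group and depth of amplification are shared. Pearson correlations were 0.94 to 0.99 among the 3 secondary genes and 0.62 to 0.97 among the 4 primary genes, with Mpo and Prtn3 at 0.97. Among the 3 late genes they were 0.58 (S100a9 with Chil3) to 0.89. With the secondary genes S100a8 reached 0.95 to 0.98, Chil3 0.93 to 0.94 and S100a9 0.72 to 0.81, so the late genes were not set apart from the secondary ones. Correlations with the secondary genes were -0.54 to -0.49 for Mpo and -0.48 to -0.39 for Prtn3. They were near 0 for Elane (-0.03 to 0.06) and 0.08 to 0.17 for Ctsg.

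The genes whose pattern over the 6 arrays was most like that of the primary genes were Uaca, Prom1, Ngb and Myl12b (r between 0.992 and 0.995). Prom1 encodes prominin 1, a membrane protein of progenitor and epithelial cells, Ngb neuroglobin, and Myl12b a myosin light chain. Those most like the secondary genes were Psmb6, a proteasome subunit, Lyz1, a lysozyme, Lcn2, lipocalin 2 of specific granules, and Hddc3 (r between 0.996 and 0.997). For the late genes they were Tlr13, a receptor of bacterial RNA, Nkg7, a membrane protein of cytotoxic granules, Tmem60 and Coa3, an assembly factor of cytochrome oxidase (r between 0.987 and 0.999). Tlr13 was dim, at 2.52 to 3.11 over the 6 arrays, below every array median. With 6 arrays a high r is common, and 177, 101 and 61 of 18183 other genes reached an r of 0.95 with the primary, secondary and late genes.

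Lcn2 and Lyz1 repeated the array pattern of the secondary genes. Lcn2 was at 5.21, 9.07 and 5.33 in Ebf2-positive cells, against 8.48, 9.91 and 9.14 in Ebf2-negative cells (difference -2.64, limma adjusted p = 0.128). Lyz1 was at 7.80, 10.89 and 8.56 in Ebf2-positive cells, against 10.76, 11.68 and 11.26 in Ebf2-negative cells (difference -2.15, limma adjusted p = 0.0972), and its probe set is of the kind that can bind similar transcripts.

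Of 18 measured genes of other granule and vesicle proteins, 4 were called lower and 1 higher, beside 13.6% and 10.8% of all genes. The list's median difference was -1.54. With poly-A centring 16 were called lower and 0 higher (median -3.77), beside 83.8% and 1.67% of all genes, so that the higher call was lost. The lower calls numbered 9 without Ebf2-positive replicate 2. Leaving out Ebf2-positive replicate 1 or Ebf2-negative replicate 3 left 1, and leaving out Ebf2-negative replicate 1 or 2 left 2. Olfm4, an olfactomedin of specific granules, fell to 2.28 ± 0.37 in Ebf2-positive cells, against 5.44 ± 0.69 in Ebf2-negative cells (SD, n = 3 each). Its difference was -3.16 (limma, adjusted p = 0.00269). Itgb2, the beta chain of leukocyte integrins (-2.04), and Adam8, a metalloprotease (-1.58), were also lower, but both lost their calls with single arrays left out (adjusted p up to 0.118 and 0.072). The gene called higher was Slc11a1, a metal transporter of phagosomes (3.0, adjusted p = 0.00559).

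Genes that process, store or inhibit granule proteins gave 1 call among 8 measured, beside 24.4% of all genes called. With poly-A centring 1 was called higher and 6 lower, beside 1.67% and 83.8% of all genes. Without that centring the call was Serpinb6a, an intracellular serpin. It was at 10.57 ± 0.43 in Ebf2-positive cells, against 6.56 ± 0.69 in Ebf2-negative cells (SD, n = 3 each). The difference was 4.02 (limma, adjusted p = 0.00132). Ctsc, the protease that activates the serine proteases of granules, was at 4.69, 6.84 and 4.20 in Ebf2-positive cells, against 7.47, 7.15 and 7.83 in Ebf2-negative cells (difference -2.24, adjusted p = 0.0564). It was named after its value was seen.

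Genes of maturing and mature neutrophils gave 2 lower and 1 higher call among 14 measured, beside 13.6% and 10.8% of all genes. The list's median difference was -0.66, and 4 were called lower without Ebf2-positive replicate 2. With poly-A centring 13 were called lower and 0 higher (median -2.88), beside 83.8% and 1.67% of all genes, so that the higher call was lost. Ltb4r1, the receptor of leukotriene B4 (-1.72), and Selplg, the ligand of P-selectin (-1.55), were lower, and Il1r2, the decoy receptor of interleukin 1, was higher (3.10). The defining receptors Csf3r and Cxcr2 were named after their values were seen. Csf3r lay somewhat above the array median on every array, and Cxcr2 near or below it. Csf3r averaged 4.32 ± 0.58 in Ebf2-positive cells, against 4.82 ± 0.16 in Ebf2-negative cells, and Cxcr2 averaged 3.20 ± 0.29 in Ebf2-positive cells, against 3.63 ± 0.08 in Ebf2-negative cells (SD, n = 3 each; adjusted p = 0.318 and 0.202). Some other genes of the list, also named after their values were seen, were brighter. Wfdc21 averaged 7.05 in Ebf2-negative cells, against 5.79 in Ebf2-positive cells, and Ifitm6 6.66 against 5.07 (limma, adjusted p = 0.0564 and 0.0524). Padi4 (3.22) and Il1b (3.59) were dim in Ebf2-negative cells as well. Ly6g, Retnlg and Cebpe were not analysed here.

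Among 6 measured myeloid progenitor genes 1 was called lower and 1 higher, beside 13.6% and 10.8% of all genes. With poly-A centring 5 were called lower and 1 higher. That centring called 83.8% of all genes lower and 1.67% higher. Kit, the receptor of stem cell factor, fell to 3.79 ± 0.27 in Ebf2-positive cells, against 7.71 ± 0.42 in Ebf2-negative cells (SD, n = 3 each; difference -3.92, adjusted p = 0.000476). Cd34, a sialomucin that stromal and vascular cells carry as well, was higher (5.98, adjusted p = 0.00132). Among 8 transcription factors of granulopoiesis Myb was called lower (-4.24, limma adjusted p = 0.0017) and Cebpd higher (2.23, adjusted p = 0.0223). Of all genes 13.6% were called lower and 10.8% higher. With poly-A centring 5 of the 8 factors were called lower and 0 higher, beside 83.8% and 1.67% of all genes. The call of Cebpd was lost without Ebf2-positive replicate 1 or 2 or without Ebf2-negative replicate 1 or 3 (adjusted p between 0.0508 and 0.0818).

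Markers of other cells differed between the groups beside the granule genes. Of 10 pan-leukocyte genes 6 were called lower and 0 higher, beside 13.6% and 10.8% of all genes. The summed intensity of the 10 genes was 542.2 to 946.8 in Ebf2-positive cells, against 2033 to 3293 in Ebf2-negative cells. With poly-A centring all 10 were called lower, beside 83.8% of all genes. Those called included Cd48 (-3.70), Vav1 (-3.12), Was (-2.90) and Laptm5 (-2.64). The count was 9 without Ebf2-positive replicate 2, and leaving out Ebf2-negative replicate 3 made it 4. Ptprc, the gene of CD45, was at 6.68, 6.76 and 3.59 in Ebf2-positive cells and 8.78, 7.98 and 8.23 in Ebf2-negative cells, and the difference of -2.65 did not pass (adjusted p = 0.0698).

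Of 6 measured basophil and mast cell genes 5 were called lower (3 without Ebf2-negative replicate 3), beside 13.6% of all genes with all 6 arrays. With poly-A centring the count was 6, beside 83.8% of all genes. Summed intensities were 226.6 to 250.6 in Ebf2-positive cells, against 1141 to 2947 in Ebf2-negative cells. The called genes were led by Mcpt8, a basophil protease (-5.89), and by Ms4a2 (-5.40) and Fcer1a (-4.64), subunits of the IgE receptor, with Cpa3, a mast cell carboxypeptidase (-2.56). Of 6 measured erythroid genes, 6 were called lower, led by Rhag (-7.43), Slc4a1 (-6.04), Tal1 (-5.60) and Alas2 (-3.85), beside 13.6% of all genes. Summed intensities of the 6 genes were 199.4 to 532.1 in Ebf2-positive cells, against 5318 to 7849 in Ebf2-negative cells.

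Of 12 measured monocyte and macrophage genes only Mrc1, the mannose receptor, was called (-2.62, limma adjusted p = 0.00099), beside 24.4% of all genes. The list's median was -0.01. None of 5 eosinophil genes was called (0 of 5 also at an unadjusted p under 0.05). With poly-A centring all 12 and all 5 were called lower, beside 83.8% of all genes (1.67% higher). The brightest eosinophil genes Epx and Prg2 averaged 3.11 and 2.55 in Ebf2-positive cells, against 3.31 and 3.57 in Ebf2-negative cells, where Prg2 stood at 6.28 on replicate 2. Of 8 stromal genes 6 were called higher, led by Dpt (7.53), Thy1 (5.41), Col3a1 (5.39) and Pdgfra (3.38), beside 10.8% of all genes. With poly-A centring 3 were called higher and 2 lower, beside 1.67% and 83.8% of all genes. Of 5 endothelial genes 1, Tek (2.51), was called higher, beside 10.8% of all genes, with a list median of 0.9998. With poly-A centring 0 were called higher and 2 lower (median -1.23), beside 1.67% and 83.8% of all genes. Ebf2 itself was at 8.33 ± 0.41 in Ebf2-positive cells, against 3.66 ± 0.49 in Ebf2-negative cells (SD, n = 3 each). The part of these other cell types in the granule genes was not tested.

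**Figure D4:**
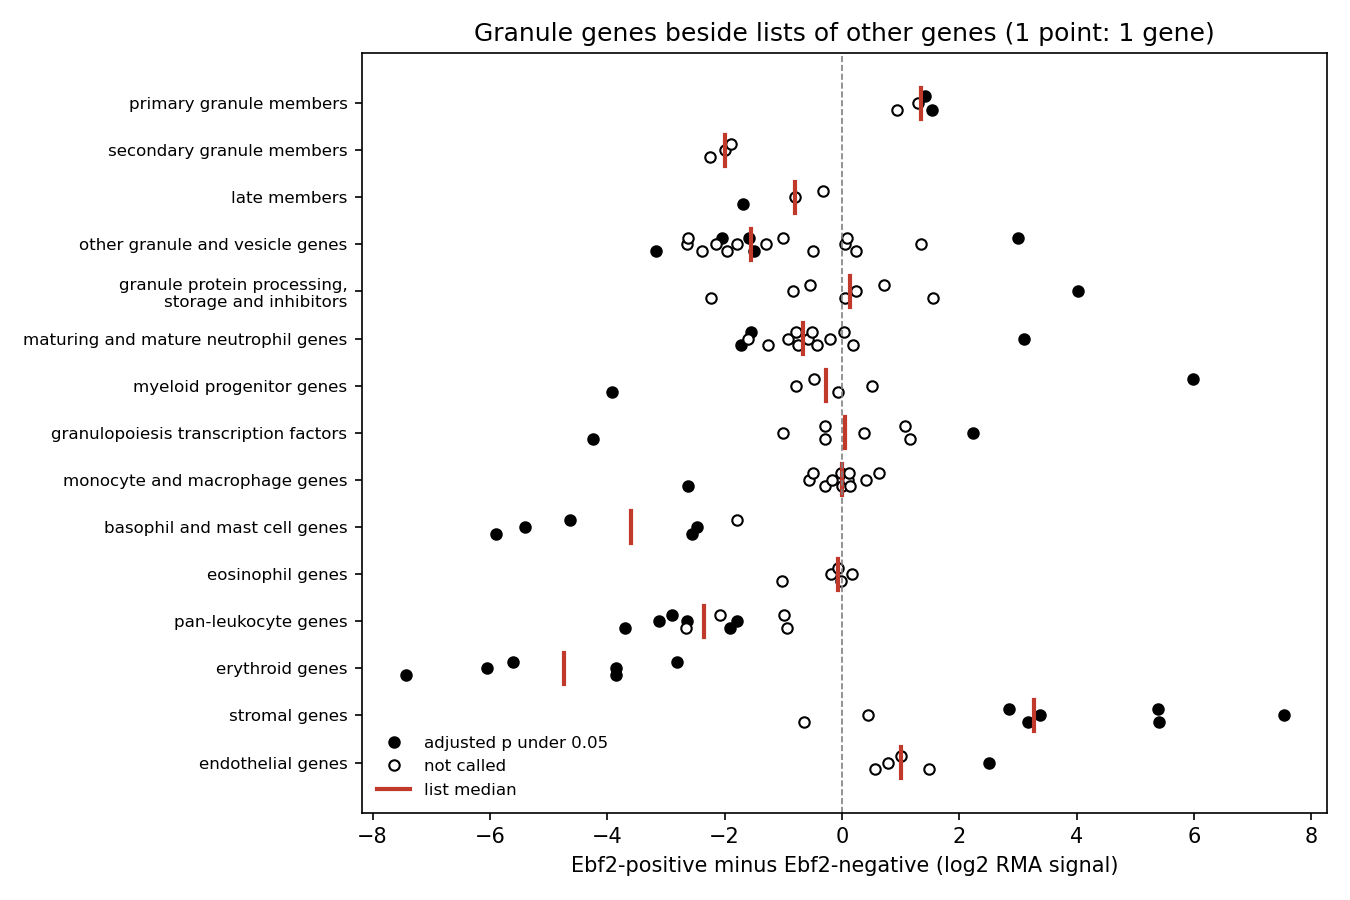
Difference of each gene between Ebf2-positive and Ebf2-negative cells (horizontal axis, log2 RMA signal) in the 3 granule stages and 12 other lists. Filled points are called genes, open points are not called, and red bars are list medians. The primary genes lie between 0.93 and 1.53, above 0 unless arrays are centred on the poly-A controls, and the secondary genes between -2.24 and -1.88.

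Genes next to the members on the chromosome were called about as often as genes in general (24.4%). Among 16 measured neighbours that are not members, 3 were called lower, 1 higher and 12 not called, by the order of genes in the RefSeq table of GRCm38.p6. Prtn3 and Elane are themselves neighbours, and so are S100a8 and S100a9. Ctsg lies next to Mcpt8, which was at 3.29, 4.13 and 2.75 in Ebf2-positive cells, against 9.42, 8.57 and 9.85 in Ebf2-negative cells (adjusted p = 0.000631). S100a8 lies next to S100a6, a calcium-binding S100 protein of fibroblasts, which was higher at 10.54, 10.84 and 11.52 in Ebf2-positive cells, against 4.83, 6.07 and 6.01 in Ebf2-negative cells (difference 5.33, limma adjusted p = 0.000638). The other two called neighbours were Ccrl2 beside Ltf, an atypical chemoattractant receptor (-1.91, adjusted p = 0.0323), and Cdc25a beside Camp, a phosphatase of the cell cycle (-2.60, adjusted p = 0.00882). Ccrl2 lost its call without Ebf2-positive replicate 3 or any of the Ebf2-negative arrays (adjusted p up to 0.0995).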

How the data were processed

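The 6 arrays (3 per group) were taken from the value table of the series. Intensity values were deposited by the authors as RMA output, per the submitters' processing notes and the design text, which means background correction, quantile normalization and summary per probe set. The sources used here give no version. The deposited intensity is on a linear scale, as its range shows, and log2 was taken. Quantile normalization hides differences in total RNA, and amplification adds spread to dim genes.

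Of 45037 non-control probe sets, 34945 name 1 gene in GEO's annotation of the platform. Entrez identifiers were matched to RefSeq (GRCm38.p6), which changed 0 symbols. A gene with several probe sets was represented by the brightest. The groups were tested in R 4.3.3 by limma 3.58.1, two-sided and with moderated variances (lmFit, eBayes), at a threshold of 0.05 after Benjamini-Hochberg adjustment over all 18193 genes, and single probe sets in a fit of their own. The test was checked on simulated data. Figures used matplotlib 3.10.9.

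Named genes were the members, Ebf2 and Ptprc, up to 4 called genes of each list with the largest difference (2 bright ones where none was called), the 4 genes most like each stage and the nearest neighbours. Others are marked in the text. The members, lists and motifs were chosen with earlier results of these data known. Promoters are RefSeq's, 250 bases before the start, and all 10 members matched. Alternatives were other scalings, filters, probe set summaries and variance models, a minimum difference, a replicate block and each array left out. The number of arrays limits the precision.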

Additional observations from a re-analysis of the deposited data

How the results depend on the processing

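Of 179 recomputed differences of single granule genes, 150 kept their direction and side of the threshold, 12 lost the call, 12 gained one and 5 reversed. Some settings could not change the difference itself, such as a minimum difference, a replicate block or a filter on genes. Averaging probe sets could not either, since each granule gene had 1 probe set. Mpo and Prtn3, counted as reversed with poly-A centring, also lost their calls there (limma, adjusted p = 0.265 and 0.336). Centring on the poly-A controls reversed the primary genes, to -0.81 for Mpo, -0.70 for Prtn3, -0.94 for Elane and -1.30 for Ctsg. It took the stage medians to -0.87, -4.23 and -3.03 for primary, secondary and late genes, called 6 granule genes, 0 higher and 6 lower, and called 15545 of all genes, 304 higher and 15241 lower (1.96% of calls higher, against 44.3%). S100a9 ranged from -0.90 to 0.0024 over the arrays left out in turn (without Ebf2-positive replicate 1). With a minimum log2 difference of 1, 0 granule genes were called (0 higher, 0 lower) and 1433 of all genes, 775 higher and 658 lower. A further quantile normalization and centring on the 75th percentile kept the calls of the granule genes. Calls among the granule genes ranged from 0 to 6 over the arrays left out in turn (0 to 2 higher, 0 to 5 lower) and from 0 to 5 in the fit of single probe sets. Over all genes the count ranged from 2690 (without Ebf2-negative replicate 3) to 4348, with 1294 to 1877 higher and 1396 to 2471 lower. Without probe sets that can cross-hybridise S100a8 had no value.

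The replicate numbers do not pair the samples by the labels. Deviations from the group means correlated at 0.06, 0.11 and 0.03 between arrays of the same number, and 5 of the 6 arrays correlated best with their own number, while Ebf2-negative replicate 3 correlated more with Ebf2-positive replicate 1 (0.04). With the replicate block 6 granule genes were called, 3 of them lower, beside 4219 of all 18193 genes (1884 higher, 2335 lower). Elane (adjusted p = 0.0402), Camp (0.0256) and Ngp (0.0488) then passed.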
